A study of Mus musculus with 6 samples.

Results

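Olfactory receptor genes were examined in the ATAC-seq peak lists of mouse pancreatic β-cells with and without Chd4, and the genes described here are those with open chromatin nearby. They are the protein-coding RefSeq genes on autosomes whose symbol is Olfr followed by a number and whose territory, the gene span plus 10 kb on each side, held a mean of at least 300 bp under peaks per library. The rule kept 113 of 1104 autosomal olfactory receptor genes, among 21887 protein-coding genes in all. Of the other receptor genes, 875 had no base under a peak in any library and 116 had some, but fewer than 300 bp on average. The members were thus chosen by their covered length averaged over all libraries, so that level is a description and no result. The series held 3 Chd4 knockout libraries, with the genotype label Chd4KO and called Chd4Db mice in the design text, and 3 control libraries. Mice of both groups were given tamoxifen, and Tomato+ mature β-cells were flow-sorted from their dispersed islets. The labels and the design text do not state the Cre driver, the animals' age or the controls' alleles. Nothing says that each library came from a separate animal, so p-values measure only the spread between these libraries, which may be technical.

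Olfactory receptors are G-protein coupled receptors that bind odorants, and they form the largest gene family of the mouse genome. In the nose each sensory neuron expresses 1 receptor allele, while the remaining receptor genes lie in compact heterochromatin, in clusters of tandem copies on many chromosomes. Chd4 is the ATPase of the NuRD complex, which remodels nucleosomes and deacetylates histones. A few olfactory receptors are known outside the nose, among them receptors in islet cells. ATAC-seq marks open chromatin by where a transposase inserts, and a peak is a stretch with many insertions. In these bulk samples, a region open in fewer cells and one less open in each cell cannot be told apart.

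The knockout libraries held 119088 to 124125 peaks over 65.8 to 69.1 Mb, and the control libraries 100109 to 110693 peaks over 58.0 to 63.8 Mb. Depth is unknown, since peak lists carry no reads. All 10 β-cell markers had peaks in every library, with 39856 to 42669 bp summed over them in the knockout and 40663 to 43872 bp in control libraries. Of these markers Ins1 and Mafa were lower in the knockout (limma adjusted p = 0.0025 and 0.010). Over 10 markers of olfactory sensory neurons the sums were 22694 to 24680 bp in knockout libraries and 19200 to 21379 bp in control libraries, with peaks near 8 of them in every library. Summed bases over 5 acinar markers were 3054 to 3334 bp in knockout libraries and 1467 to 1548 bp in control libraries, with Cpa1 and Prss1 at 0 in every library. Over 3 endothelial markers they were 7041 to 8553 bp in knockout libraries and 5614 to 6331 bp in control libraries. The part of acinar and endothelial chromatin in the results below was not tested. The groups overlapped for 4 leukocyte markers, whose sums were 6283 to 7119 bp in knockout libraries and 6171 to 7299 bp in control libraries, with Adgre1 at 0 in every library. Over 5 α-cell markers the sums were 7284 to 7638 bp in knockout libraries against 7967 to 9260 bp in control libraries. Over 2 δ-cell markers they were 2396 to 2603 bp in knockout libraries against 2918 to 3405 bp in control libraries. All these sums are without scaling. The 2 acinar markers tested, Ctrb1 and Cela2a, were higher in the knockout (limma adjusted p = 0.0041 and 0.022), and none of 3 endothelial markers passed. Lower by limma were 1 of 3 tested leukocyte, 2 of 5 α-cell and 1 of 2 δ-cell markers. Receptor genes are tandem copies with similar sequence, and the labels do not say how reads that map to several places were treated. The Chd4 deletion itself could not be checked against the genotype labels from peaks.

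Olfactory receptor territories were mostly closed. Peaks covered 0.489% of the merged territories of all 1104 receptor genes in the knockout and 0.368% in the control, whereas for the territories of all other protein-coding genes the shares were 3.83% in the knockout and 3.56% in the control. No base under a peak in any library was found at 79.3% of receptor genes, 91.3% of the 230 Vmn1r and 86.2% of the 123 Vmn2r vomeronasal receptor genes and 11.7% of all other protein-coding genes. The trace amine receptors, another family of nasal receptors, lay at the other end, with peaks near 13 of 15 genes. Over the territories of the 113 genes, peaks covered 79.0, 80.4 and 81.5 kb in the knockout libraries and 63.6, 70.7 and 62.9 kb in the control libraries. The groups did not overlap, and the ratio of their means was 1.22. Of the 113 genes, 23 reached 300 bp in the knockout mean alone and 2 in the control mean alone. Ratios over the 113 genes are therefore not independent of the rule. After scaling to equal totals per library, the means were 75.9 ± 2.66 kb in knockout libraries and 69.8 ± 0.818 kb in control libraries (SD, n = 3 each), a ratio of 1.09. The unscaled ratio was 1.03 when only the 50000 strongest peaks per library were kept. Over all 1104 genes the unscaled values were 94.9, 94.4 and 101.3 kb in knockout libraries and 70.6, 79.4 and 68.7 kb in control libraries, a ratio of 1.33, and the scaled means were 91.6 kb in knockout libraries and 77.4 kb in control libraries, a ratio of 1.18. For all other protein-coding genes the ratio was 1.08 without scaling and 0.958 with it.

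The 113 genes stood on 15 chromosomes in 31 of 48 clusters, taking as 1 cluster every run of annotated receptor genes with gaps of at most 1 Mb. Their territories joined into 93 separate loci, and 22 genes had every open region of theirs in the territory of another member as well, 14 of them with the same set of regions as that member. The median gene span was 960 bp, the size of a single coding exon, and 88 of the 113 spans were multiples of 3 in length, as for coding sequence without untranslated regions. Mean bases under peaks ran from 316.5 to 2607.7 bp per library, with a median of 599.8 bp. Every member had a peak in each knockout library, whereas 18 had none in at least 1 control library and 7 had none in any. Of the members, 23 reached 300 bp in the knockout mean but not in the control mean, so these counts are not independent of the rule. Just inside the limit of 300 bp stood Olfr994 and Olfr995, which share their peaks, at 316.5 bp, Olfr961 at 323.7 bp and Olfr452 at 326.8 bp. Just outside it stood Olfr715b and Olfr17 at 297.2 bp, Olfr310 at 289.5 bp and Olfr149 at 282.5 bp.

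Peaks reached the receptor gene span, which is short beside flanks of 10 kb, at a minority of members. A peak overlapped the gene span in at least 1 library at 20 members and in every library at 12, with the most bases at Olfr1393, at 1115, 1202 and 1059 bp in knockout libraries and 885, 856 and 486 bp in control libraries. At Olfr538 peaks over the span covered 715, 766 and 532 bp in knockout libraries and 271, 224 and 294 bp in control libraries. RefSeq promoter windows, 250 bases before to 50 after the annotated start, were found for 91 of the 113 members on the build GRCm38.p6. In 68 of the 91 the annotated start was an ATG, so it may be the start codon and not the start of transcription. Peaks touched 6 of the 91 windows: 2 in all 6 libraries, 2 in all knockout and no control libraries and 2 in a single knockout library. Of all 27025 windows, 44.7% were touched in all 6 libraries, 1.11% in all knockout and no control libraries and 0.263% in all control and no knockout libraries. For the members the share in all knockout and no control libraries was 2.20%, or 2 windows.

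The windows touched in every library of at least 1 group are shown because they are the few places where the open chromatin sits at a receptor's start. Those of Olfr373 (chr8:72099512-72099811, plus strand) and Olfr317 (chr11:58733174-58733473, minus strand) were touched in the knockout libraries, at 260, 300 and 300 bp and at 152, 114 and 65 bp, and in no control library. That of Olfr541 (chr7:140704003-140704302, plus strand) was covered over all 300 bp in every library. That of Olfr95 (chr17:37211802-37212101, minus strand) had 10, 36 and 51 bp in knockout libraries and 59, 22 and 51 bp in control libraries. Capitals mark the motifs searched.
Olfr373: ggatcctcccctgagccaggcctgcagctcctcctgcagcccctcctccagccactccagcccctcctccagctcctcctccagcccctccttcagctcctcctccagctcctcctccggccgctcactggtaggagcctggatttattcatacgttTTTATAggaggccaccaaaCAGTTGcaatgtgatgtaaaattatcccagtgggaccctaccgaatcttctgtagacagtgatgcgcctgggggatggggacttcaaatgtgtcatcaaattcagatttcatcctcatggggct
Olfr317: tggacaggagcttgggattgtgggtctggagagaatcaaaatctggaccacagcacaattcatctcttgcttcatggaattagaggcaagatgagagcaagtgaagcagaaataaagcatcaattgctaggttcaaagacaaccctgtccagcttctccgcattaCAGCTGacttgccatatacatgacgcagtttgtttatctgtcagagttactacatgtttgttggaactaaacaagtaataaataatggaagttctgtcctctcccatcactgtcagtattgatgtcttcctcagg
Olfr541: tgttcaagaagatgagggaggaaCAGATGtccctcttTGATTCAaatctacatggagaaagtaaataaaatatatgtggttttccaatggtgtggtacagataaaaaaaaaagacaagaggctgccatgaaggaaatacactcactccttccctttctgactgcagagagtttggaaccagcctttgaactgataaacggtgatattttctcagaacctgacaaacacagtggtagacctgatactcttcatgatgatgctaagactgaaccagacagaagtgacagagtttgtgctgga
Olfr95: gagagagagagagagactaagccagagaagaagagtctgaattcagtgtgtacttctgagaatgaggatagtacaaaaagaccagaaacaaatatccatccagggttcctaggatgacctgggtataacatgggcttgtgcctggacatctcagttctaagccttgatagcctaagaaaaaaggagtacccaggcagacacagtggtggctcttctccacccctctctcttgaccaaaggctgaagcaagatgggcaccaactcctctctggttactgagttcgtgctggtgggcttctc

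Motifs were searched on both strands in all windows, and none of them contains another. The E-box CAGNTG, bound by helix-loop-helix factors such as Neurod1 in β-cells, stood in 67.0% of the member windows, 48.6% of 938 receptor windows and 51.1% of all windows. It was present in the windows of Olfr373, Olfr317 and Olfr541 and not in that of Olfr95. The AP-1 motif TGANTCA, present at Olfr541, stood in 11.0% of member, 13.4% of receptor and 7.93% of all windows. TATAAA, present at Olfr373 on the other strand, stood in 23.1%, 41.2% and 14.2%. The homeodomain core TAATTA stood in 12.1% of member, 18.8% of receptor and 5.31% of all windows. The EBF core CCCNNGGG, which with homeodomain sites marks receptor promoters in the nose, stood in 8.79% of member, 3.09% of receptor and 13.4% of all windows, and CACGTG in 1.10%, 2.13% and 7.24%. The median GC content was 40.7% in member, 35.0% in receptor and 52.7% in all windows, and the counts were not corrected for it.

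In the knockout, covered length was higher at 20 members, lower at 7 and not past the threshold at 86. The test was limma on log2(scaled bases + 300 bp) over 17711 genes, with adjusted p under 0.05 as the threshold. That scale understates the fold change of a gene with few bases. Of all genes tested, 7.57% were higher and 14.6% lower, against 17.7% and 6.2% of the members. These shares are not independent of the rule: 23 members reached 300 bp in the mean of the knockout but not in the control mean, 13 of them among the higher ones, and 2 reached it in the control mean alone, 1 of them among the lower. Of the 88 members that reached it in both, 7 were higher and 6 lower. With 1 library left out in turn, 9 to 18 members were higher, 9 without knockout library 1 or 2, and 1 to 8 were lower, 1 without control library 3 and 4 without control library 1. Without knockout library 1, 2 or 3, only 105, 108 and 105 members reached 300 bp and were tested. Of the 27 called members, 21, 22 and 23 were tested there. With territories of 2 kb on each side 5 of 28 tested members were higher and 0 lower by limma, and with the 50000 strongest peaks of each library 9 of 60 were higher and 3 lower. Over all genes tested, 1106 were higher and 2361 lower with 2 kb, and 1165 and 1543 with the strongest peaks. The 20 higher genes form 18 loci and the 7 lower genes 6. The median log2 fold change was -0.02 over the members and -0.09 over all genes tested. Without scaling it was 0.10 over the members, a shift of 0.12, and 0.06 over all genes, a shift of 0.15, and 21 members were higher and 5 lower. Unscaled values of all knockout libraries lay above all control libraries at 35 members, or 31.0%, close to the 28.5% of all genes, and below them at 8 members, or 7.08%, against 9.68%. After scaling the same held at 26 members, or 23.0%, against 13.1% of all genes, and at 27 members, or 23.9%, against 32.7%.

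**Figure D1:**
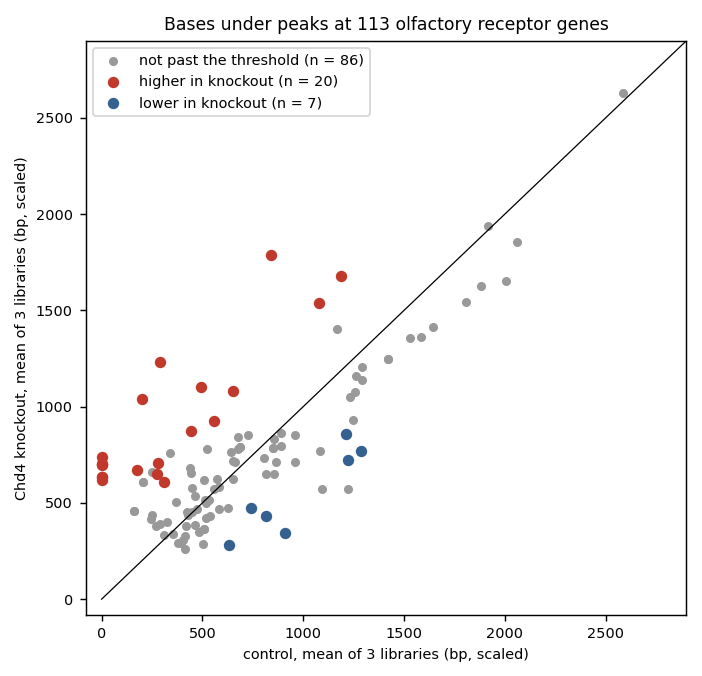
Mean bases under peaks at each of the 113 olfactory receptor genes, scaled to equal library totals, in 3 Chd4 knockout libraries (vertical axis, bp) against 3 control libraries (horizontal axis, bp). The line marks equal values. The 20 genes called higher lie above it, 7 of them at 0 bp in control libraries, and the 7 called lower lie below it.

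At 7 genes, every knockout library listed peaks and no control library did. Values per library here and below are bases without scaling, and no fold change is given against a group at 0. These genes became members through the knockout libraries alone, so that they differ follows from the rule, and no p-value is given for them. Olfr874 (chromosome 9, 37745300 to 37747106) had 862, 649 and 828 bp in knockout libraries and 0 bp in each control library. Olfr919 in the same cluster had 742, 618 and 867 bp in knockout libraries and 0 bp in each control library. The regions of Olfr874 lay 1983 and 3825 bp from its span, and the single region of Olfr919, of 867 bp, lay 3160 bp from its span. Olfr285 (chromosome 15, 98312589 to 98313548) had 685, 838 and 715 bp in knockout libraries and 0 bp in each control library. Olfr157 on chromosome 4 had 837, 820 and 556 bp in knockout libraries, and Olfr317 on chromosome 11 had 586, 881 and 511 bp in knockout libraries, again with 0 bp in every control library. Olfr568 and Olfr569 on chromosome 7 are neighbors that share 1 region between them, of 705, 605 and 707 bp in knockout libraries and 0 bp in control libraries.

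**Figure D2:**
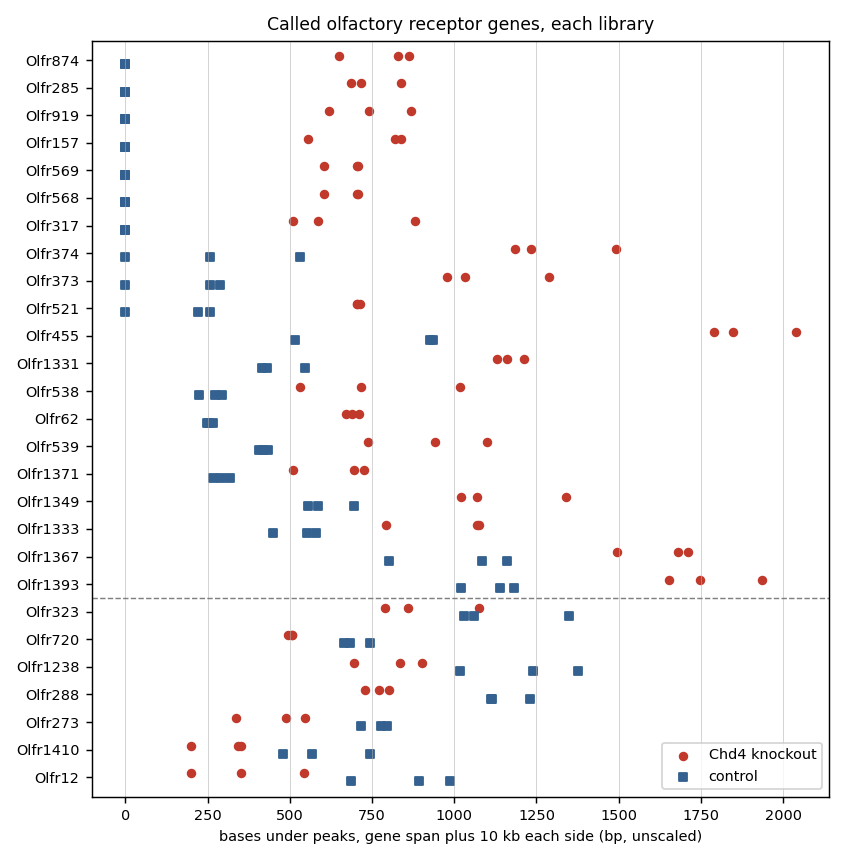
Bases under peaks, without scaling, in the territory of each of the 27 called olfactory receptor genes (horizontal axis, bp), ordered by fold change. Each point is 1 library: red circles are the 3 Chd4 knockout libraries and blue squares the 3 control libraries. The 20 genes above the dashed line were higher in the knockout, with no overlap between the groups, and of the 7 below it Olfr323 alone has overlapping groups.

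Among the higher genes with peaks in some or all control libraries, Olfr373 and its neighbor Olfr374 on chromosome 8 had the largest log2 fold changes. Both, like Olfr521, Olfr62, Olfr538 and Olfr1371 below, had an unscaled control mean under 300 bp and reached the limit through the knockout libraries, so their calls are not independent of the rule. Olfr373 (72099762 to 72100706) had 979, 1288 and 1032 bp in knockout libraries and 288, 0 and 257 bp in control libraries (log2 fold change 1.49 ± 0.27 SE, limma adjusted p = 0.011). Olfr374 had 1185, 1493 and 1232 bp in knockout libraries and 531, 0 and 257 bp in control libraries (1.51 ± 0.34, limma adjusted p = 0.021), and it lost its call without control library 3 (limma adjusted p = 0.061) or without knockout library 2 (0.055). Both share the region over the start of Olfr373 (72099225 to 72099910), which was called in every knockout library, at 538, 664 and 686 bp, and in no control library, and which reaches into the promoter window printed above. Olfr521 on chromosome 7 had 705, 713 and 705 bp in knockout libraries and 256, 0 and 222 bp in control libraries, all from 1 region 1354 bp from the gene (1.09 ± 0.26, limma adjusted p = 0.024). Without knockout library 1 or 2 its adjusted p was 0.065 and 0.055.

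At Olfr455 (chromosome 6, 42538067 to 42539020) covered length was 1847, 2039 and 1790 bp in knockout libraries and 515, 934 and 927 bp in control libraries (log2 fold change 0.90 ± 0.15 SE, limma adjusted p = 0.0088). Its region called in every knockout and no control library was the widest such region near any member, at 949 bp (42536750 to 42537698), and ended 368 bp from the gene and lay 49514 bp from any other protein-coding gene span. On chromosome 4, Olfr1331 had 1212, 1130 and 1160 bp in knockout libraries and 414, 546 and 430 bp in control libraries (0.83 ± 0.10, limma adjusted p = 0.0029). Olfr62 in the same cluster had 690, 671 and 709 bp in knockout libraries and 249, 254 and 265 bp in control libraries (0.73 ± 0.13, limma adjusted p = 0.0094). Its territory held 2 regions called in every knockout and no control library and 1 region of the opposite pattern (118657633 to 118657921), which had 0 bp in each knockout library and 249, 254 and 265 bp in control libraries. Olfr455, Olfr1331 and Olfr1393 passed with each library left out in turn. Olfr62 and Olfr373 did too, but they reached 300 bp through the knockout libraries, so their passing is not independent of the rule. With the 50000 strongest peaks of each library Olfr455 and Olfr1393 lost their calls, with 2 kb territories Olfr1331 and Olfr1393 did, and Olfr62 was tested under neither setting. The other higher genes, Olfr538, Olfr539, Olfr1371, Olfr1349, Olfr1333 and Olfr1367, had log2 fold changes of 0.42 to 0.78 and lost their calls without at least 1 library, with adjusted p up to 0.11. Of these, Olfr1333, Olfr1371 and Olfr1367 also missed the threshold with the replicate number as a block.

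Each of the 7 lower members had at least 1 region called in all 6 libraries. Olfr12 (chromosome 1, 92619881 to 92621001) had 350, 542 and 200 bp in knockout libraries and 687, 988 and 894 bp in control libraries (log2 fold change -0.93 ± 0.19 SE, limma adjusted p = 0.016). Its neighbor Olfr1410, which shares 2 of the 3 regions of Olfr12, had 350, 342 and 200 bp in knockout libraries and 480, 743 and 566 bp in control libraries (-0.68 ± 0.16, limma adjusted p = 0.025). Without control library 2 or 3 both lost their calls, with limma adjusted p of up to 0.060 for Olfr12 and 0.077 for Olfr1410. Olfr1410 also missed the threshold without scaling (limma adjusted p = 0.059), as did Olfr323 (0.20). The unscaled knockout mean of Olfr1410 was 297.3 bp, so it reached the 300 bp limit through the control libraries. Its call is therefore not independent of the rule. Olfr288 (chromosome 15, 98186011 to 98195542) had 801, 770 and 730 bp in knockout libraries and 1115, 1230 and 1112 bp in control libraries (-0.57 ± 0.08, limma adjusted p = 0.0048). A region 6546 bp from it (98178997 to 98179464) was called in no knockout library and at 419, 459 and 406 bp in control libraries. With the 50000 strongest peaks of each library Olfr288 had the opposite sign (0.05). Olfr273 has a single region, with 547, 335 and 489 bp in knockout libraries and 778, 715 and 794 bp in control libraries (-0.61 ± 0.15, limma adjusted p = 0.025; up to 0.085 with 1 library left out). Olfr1238 (-0.57 ± 0.12), Olfr720 (-0.43 ± 0.10) and Olfr323 (-0.39 ± 0.11) completed the lower genes. With the replicate number as a block Olfr720 did not pass. Without control library 3 only Olfr288 among the 7 passed.

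The receptors with the most open chromatin did not pass the test. Olfr1342 on chromosome 4 had 2773, 2888 and 2685 bp in knockout libraries and 2178, 2633 and 2489 bp in control libraries (log2 fold change 0.02 ± 0.07 SE, limma adjusted p = 0.81). A region of 235 bp over its span was called in the knockout libraries alone, at 235, 205 and 203 bp. Olfr750 (-0.13 ± 0.06), Olfr986 (-0.18 ± 0.08) and Olfr94 (-0.24 ± 0.08) had means of 1948, 1744 and 1817 bp, with limma adjusted p of 0.17, 0.12 and 0.058. The groups of these 3 genes overlapped before scaling, and after it all knockout libraries lay below all control libraries. At Olfr986 the widest of 3 regions overlapped the span of Zfp202, a zinc finger gene, so its bases are not those of the receptor gene alone.

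Receptors reported in islets and other organs were looked at whatever their values. Olfr78, a receptor of short-chain fatty acids known from kidney vessels and the carotid body, had 2048, 1818 and 2278 bp in knockout libraries and 1556, 1873 and 1978 bp in control libraries (log2 fold change 0.01 ± 0.11 SE, limma adjusted p = 0.94). A region of 370 bp, called in every knockout and no control library, lay 2526 bp from it. Peaks over its own span (chromosome 7, 102740721 to 102759471) were present in every library. Olfr15, a medium-chain fatty acid receptor described in β-cells, had 1705, 1756 and 1451 bp in knockout libraries and 1642, 1898 and 1568 bp in control libraries (-0.19 ± 0.08, limma adjusted p = 0.100). The region over its coding span (chromosome 16, 3839554 to 3839900) was called in all 6 libraries at 284, 300 and 284 bp in knockout libraries and 342, 320 and 311 bp in control libraries. Another of its 4 regions overlapped the span of Zfp174. Olfr558, another fatty acid receptor, had 315, 481 and 678 bp in knockout libraries and 507, 626 and 508 bp in control libraries (-0.23 ± 0.18, limma adjusted p = 0.38). Olfr544, described in α-cells, was no member: it had 0, 246 and 341 bp in knockout libraries and 0 bp in each control library. Olfr109, described in β-cells, was listed at 0 bp in every library.

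The territories of the 113 genes held 186 open regions, each counted once, 25 of them in the territory of more than 1 member. Gained regions, called in all 3 knockout libraries and no control library, numbered 25, or 13.4%, and lost regions, the reverse, 2, or 1.08%. When only the 50000 strongest peaks per library were kept, 10 were gained and 7 lost, and with 2 kb territories 9 gained and 0 lost. Over the whole genome 10.3% of 156745 regions were gained and 2.62% lost. A further 109 were shared by all 6 libraries and 50 had another pattern. Because membership required peaks, the same count was made over all 1104 genes, where 287 regions held 47 gained (16.4%) and 7 lost (2.44%). Vmn1r territories held 25 regions with 1 gained and 1 lost, and Vmn2r territories 28 regions with 0 gained and 3 lost. Of the 20 higher members 15 had a gained region, as had 8 of the 86 members that did not pass and none of the 7 lower ones. The other 5 higher members, Olfr1333, Olfr521, Olfr538, Olfr1367 and Olfr1393, differed at shared regions or at regions missed in some libraries. The calls and the region classes rest on the same peaks, so their overlap is no separate result.

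Gained regions near members were narrower than shared regions and lay farther from other genes by the median. Their median width was 370 bp, against 679 bp for shared regions. Their median distance to the nearest other protein-coding gene was 49514 bp, against 22554 bp. For regions of another pattern these medians were 319.5 bp and 26887 bp, and 6 of 50 lay within 10 kb of another protein-coding gene. Of the 25 gained regions, 3 overlapped a receptor gene span and 7, these included, lay within 1 kb of one. The median distance to a receptor span was 3134 bp for gained and 5502 bp for shared regions. Another protein-coding gene lay within 10 kb of 4 gained and 39 shared regions, and 17 of the shared regions overlapped its span. By the authors' −log10 q, median percentiles within the knockout lists were 30.9 to 44.3 for gained and 61.1 to 65.6 for shared regions. Over the genome, gained regions had a median width of 386 bp and median percentiles of 32.9 to 36.0. Shared regions there had 765.5 bp and 65.9 to 67.4, so these differences are not particular to receptor loci. Distances to genes were not computed over the genome.

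**Figure D3:**
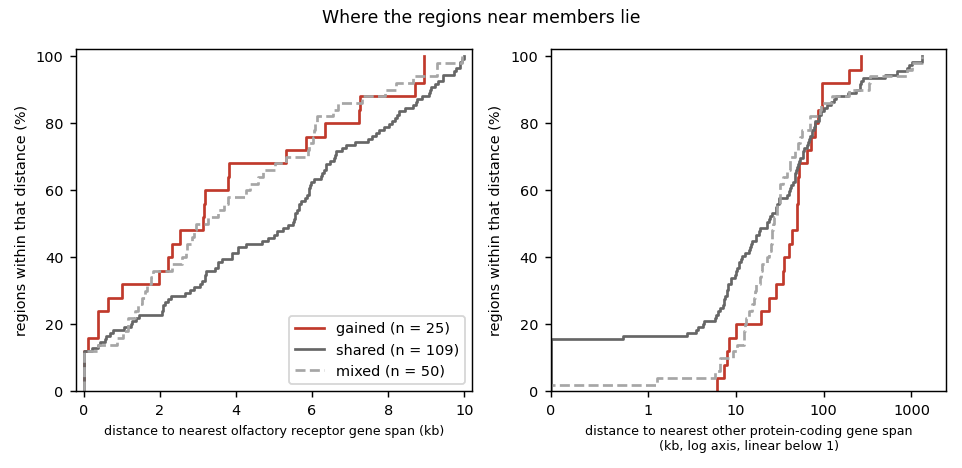
Cumulative share of regions (vertical axis, %) within a given distance (horizontal axes, kb) of the nearest olfactory receptor gene span (left) and of the nearest other protein-coding gene span (right, log axis that is linear below 1 kb). Lines stand for 25 gained, 109 shared and 50 other regions near the 113 members, and the 2 lost regions are left out. At 0 kb on the right stand 17 shared regions and no gained region.

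By cluster, the 25 gained regions near members were spread over 13 of the 31 clusters. In the cluster from Olfr62 to Olfr1328 on chromosome 4, 4 of the 12 regions near its 5 members were gained, and 1 more gained region lay near a receptor gene that is no member. Peaks near the 5 members covered 6517, 6623 and 6360 bp in knockout libraries and 4295, 4901 and 4264 bp in control libraries. Olfr373 and Olfr374, the members of the cluster from Olfr372 to Olfr374 on chromosome 8, had together, with shared bases counted once, 1185, 1493 and 1232 bp in knockout libraries and 531, 0 and 257 bp in control libraries. In the cluster from Olfr70 to Olfr155 on chromosome 4, 3 members had 1789, 1762 and 1455 bp in knockout libraries and 1013, 1048 and 661 bp in control libraries, with 2 gained regions among the 5 near them. In these 3 clusters the groups stayed apart after scaling. Among their members Olfr62, Olfr157, Olfr373 and Olfr374 reached the 300 bp limit through the knockout libraries, so this separation is not independent of the rule. Knockout libraries also lay above control libraries after scaling in the clusters of Olfr1358, Olfr1393, Olfr1371, Olfr455, Olfr521 and Olfr538. There Olfr1358, Olfr1371, Olfr452, Olfr521 and Olfr538 reached the limit in the same way. They lay below control libraries in the clusters of Olfr720, Olfr15, Olfr1417, Olfr273 and Olfr12. The largest group, 19 members from Olfr543 to Olfr692 on chromosome 7, had 8401, 7777 and 10529 bp in knockout libraries and 7311, 7311 and 7153 bp in control libraries, with 3 gained regions among the 21 near them, and its groups overlapped after scaling. The 11 members from Olfr160 to Olfr986 on chromosome 9 had 7765, 6913 and 9011 bp in knockout libraries and 5555, 7381 and 5800 bp in control libraries, and the groups overlapped with scaling and without it.

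Near the members of some large clusters no region was gained. The 222 receptor genes from Olfr987 to Olfr1274 on chromosome 2, the largest cluster, held 10 members, with 4561, 4138 and 5473 bp in knockout libraries and 3863, 4814 and 4808 bp in control libraries. The 7 members from Olfr90 to Olfr136 on chromosome 17, next to genes of the major histocompatibility complex, had 4972, 5064 and 5400 bp in knockout libraries and 4991, 4773 and 4913 bp in control libraries, and 8 of their 9 regions were shared. In both clusters the groups overlapped with scaling and without it. Near receptor genes that are no members, the chromosome 2 cluster held 3 gained and 3 lost regions and the chromosome 17 cluster 1 gained region. The 4 members from Olfr1416 to Olfr12 on chromosome 1 went the other way, with 2660, 3106 and 2562 bp in knockout libraries and 3236, 3305 and 3202 bp in control libraries, with 1 gained region among the 7 near them, and the groups did not overlap with scaling or without it.

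**Figure D4:**
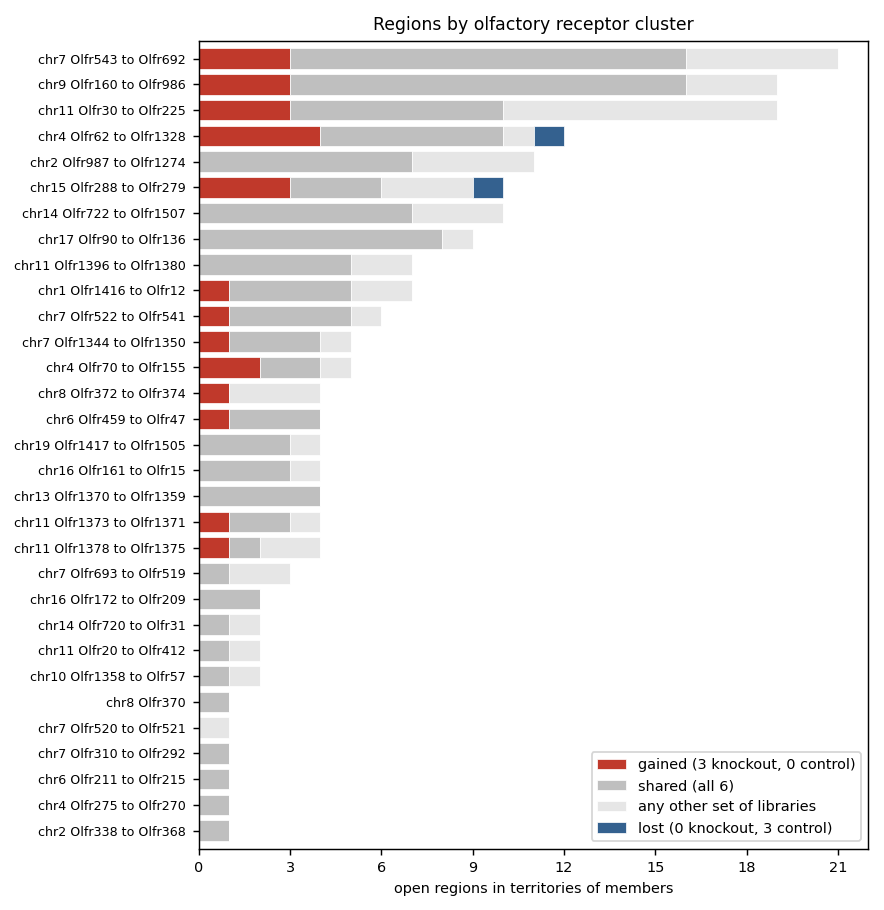
Number of open regions in the territories of members (horizontal axis), for each of the 31 olfactory receptor clusters with a member, named by chromosome and by first and last gene. Colors give regions called in all knockout and no control libraries (red), in all 6 (grey), in any other set (light grey) and in all control and no knockout libraries (blue). The 25 red regions are spread over 13 clusters and the 2 blue ones lie in 2.

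Genes that act with olfactory receptors in the nose showed few differences. Of 18 tested genes of olfactory signalling and receptor trafficking, Rtp2, which carries receptors to the cell surface, was higher, at 881, 876 and 992 bp in knockout libraries and 638, 421 and 355 bp in control libraries (log2 fold change 0.56 ± 0.16 SE, limma adjusted p = 0.043). None was lower by limma, and at an unadjusted p under 0.05 there were 2 higher and 2 lower. Their median was 0.06. Of 17595 tested genes other than olfactory receptor genes, 2120 were higher and 4899 lower at that unadjusted limma p. The unadjusted counts below have the same background. The olfactory marker gene Omp had 0.31 ± 0.26, the adenylate cyclase gene Adcy3 0.15 ± 0.08, and the channel gene Cnga2 -0.78 ± 0.30, none past the threshold (limma adjusted p = 0.40, 0.21 and 0.095). Of 18 regulators of receptor choice, the deacetylase gene Hdac2, which codes for a NuRD subunit, was lower, at 1423, 1425 and 1713 bp in knockout libraries and 1741, 1932 and 1710 bp in control libraries (-0.35 ± 0.09, limma adjusted p = 0.029), values that overlap before scaling. None was higher by limma, with 2 higher and 5 lower at an unadjusted p under 0.05 and a median of -0.06. The genes of Lhx2 and Ldb1, which assemble receptor enhancers in the nose, had -0.29 ± 0.11 and -0.05 ± 0.07 (limma adjusted p = 0.087 and 0.63). Leaving out 1 library in turn, each of the calls on Rtp2 and Hdac2 was lost in 5 of 6 fits, with limma adjusted p up to 0.12 for Rtp2 and 0.090 for Hdac2. Among other chemoreceptors limma called none of 10 Vmn1r and 9 Vmn2r genes, with 0 higher and 2 lower and with 0 higher and 3 lower at an unadjusted p under 0.05. It called 1 lower of 13 Taar genes, Taar2 (-0.95 ± 0.20, limma adjusted p = 0.017), and 1 higher of 3 Tas2r bitter taste receptor genes, Tas2r119 (0.81 ± 0.16, limma adjusted p = 0.014), both named after their values were seen. The call of Taar2 was lost in 2 of 6 fits, those without control library 1 or 3, with limma adjusted p up to 0.064.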

How the data were processed

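ATAC-seq of 3 Chd4 knockout and 3 control libraries of flow-sorted β-cells was deposited as 1 peak list per library. Peaks were called with MACS2 on shifted cutting sites, per the file names, and the build is mm10 per the submitters' processing notes. The deposited lists give each peak a score, a fold enrichment, a −log10 p-value and a −log10 q-value, all made by the authors. No source names the aligner or its settings. Without read counts, depth is unknown. Per gene, bases under peaks were summed over the RefSeq span plus 10 kb on each side, scaled to equal totals per library, and tested as log2(bases + 300 bp) with limma 3.58.1 in R 4.3.3 (intensity trend, Benjamini-Hochberg over all 17711 genes with a mean of at least 300 bp, two-sided). On simulated data 88.5% of 200 genes changed by 1 on the log2 scale were recovered. Peaks of all libraries that overlapped by 1 bp were merged into regions. The members and the gene lists were chosen with earlier results of these data known. Genes are named by a rule: the 10 largest called differences in each direction, the 5 most covered members, up to 10 with a peak over the span in every library, the 4 nearest the limit on each side and 5 receptors reported outside the nose; others are named where a count is broken down, after their values were seen. Same-numbered libraries deviated together with correlations of 0.13, 0.093 and -0.027, so the numbers were not taken as pairs.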

Additional observations from a re-analysis of the deposited data

How the results depend on the processing

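The count of members called higher (20) ran from 9 to 18 with 1 library left out, and was 9 without knockout library 1 or 2. In those 2 fits 105 and 108 members were tested, with 21 and 22 of the 27 called ones, since the others fell under 300 bp. The count called lower (7) ran from 1 to 8 and was 1 without control library 3. Of the 27 called members, 13 passed in every left-out fit that tested them, 6 of these in all 6 fits. The rest of the 13 had 0 bp in every control library and fell under 300 bp in some fits. That they differ follows from the rule. With the territory cut to 2 kb on each side, 28 members could be tested, 5 were higher and 0 lower by limma. With the 50000 strongest peaks of each library 60 could be tested, 9 were higher and 3 lower, and Olfr288 changed sign, to 0.0538 (limma adjusted p = 0.518). Over all genes 1340 were higher and 2577 lower, against 2586 and 510 without scaling. With 1 library left out, 676 to 1159 were higher and 840 to 2229 lower. With 2 kb 1106 were higher and 2361 lower, and with the strongest peaks 1165 and 1543. Gained regions numbered 10 and lost regions 7 with the strongest peaks, and 9 and 0 with the 2 kb territory. Lost regions were 1 over 10 kb from other genes, and gained and lost regions ran from 26 to 28 and from 2 to 4 with 1 library left out, 4 without control library 1. The ratio of covered bases of 1.22 was 1.03 with the strongest peaks, 1.52 with 2 kb and 1.09 scaled.

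Of the signalling genes 2 were higher without scaling, and 0 to 1 with 1 library left out. Of the regulators of choice 1 was higher and 0 lower without scaling, 3 were higher with the strongest peaks and 3 lower with 2 kb, and with 1 library left out 0 to 1 were higher and 0 to 1 lower. Of the other chemoreceptors 2 were higher without scaling, 3 higher and 2 lower without the filter, and with 1 library left out 1 to 2 were higher and 0 to 4 lower. The cause of these changes was not tested.

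With the replicate number as a block, 18 members were higher and 7 lower, and Olfr1333, Olfr1371, Olfr1367 and Olfr720 lost their calls, while 23 of 27 kept theirs. Over all genes tested, 1164 were higher and 1937 lower with the block. With the block 0 signalling genes were higher and 2 other chemoreceptors lower. The numbers are not taken to pair the libraries, and 4 of 6 libraries correlated best with a library of their own number. Without read counts, a region missing from a list cannot be told from one just under the peak threshold.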

Other observations

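Of 6 olfactory receptor genes on the X chromosome, which the autosomal rule leaves out, 3 had enough bases under peaks for the test. Olfr1320 had 1432, 1901 and 1670 bp in the knockout and 648, 992 and 822 bp in the control, without overlap (log2 fold change 0.68 ± 0.12 SE, limma adjusted p = 0.010). Olfr1322 had 1524, 1672 and 1672 bp in the knockout and 1261, 1285 and 1235 bp in the control (0.16 ± 0.07, limma adjusted p = 0.14), and its groups did not overlap before scaling. Olfr1324 had 408, 430 and 426 bp in the knockout and 354, 460 and 367 bp in the control, with overlap (-0.04 ± 0.13, limma adjusted p = 0.85).

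Beyond the member territories, 22 gained and 5 lost regions lay within 10 kb of autosomal receptor genes that fell short of 300 bp.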
